A study of Arabidopsis thaliana with 5 samples.

Results

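Small nucleolar RNA (snoRNA) and spliceosomal small nuclear RNA (snRNA) genes of Arabidopsis thaliana were examined for binding of TREE1 tagged with green fluorescent protein (TREE1-GFP). The members were all 369 nuclear gene records of these kinds on chromosomes 1 to 5, 287 snoRNA and 82 snRNA, of 37899 nuclear gene records in all. A record was called near binding when the summit of a peak, the position of its highest tag pileup, lay within 1000 bp of it. The kind of record chose the members and no measured value did.

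Binding was measured by chromatin immunoprecipitation and sequencing with an anti-GFP antibody. All samples were shoot tissue of dark-grown seedlings aged 3 days, of 1 line that carried the tagged protein under the TREE1 promoter. The samples were 1 library after 4 h of hydrocarbon-free air, 2 libraries after 4 h of the same air with 10 ppm ethylene, a gaseous plant hormone, and 1 input library without antibody for each treatment. Nothing in the labels tells if separate seedling batches gave the 2 ethylene libraries, so their spread may be technical. With 1 air library, no difference between treatments was tested, and none of the differences between air and ethylene below can be set against a spread between air samples.

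After duplicate removal the 3 libraries kept 5884897 to 9459860 tags, with ethylene library 1 the shallowest, and the lists had 8602 (air), 9156 (ethylene library 1) and 9958 (ethylene library 2) peaks. A single input served the peak calls of both ethylene libraries. Intervals on shares below are Wilson 95% intervals. They cover counting error only, and they are too narrow where neighbouring records share a summit.

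As background, snoRNAs guide the chemical modification and processing of ribosomal RNA in the nucleolus. Box C/D snoRNAs guide methylation of the ribose, and box H/ACA snoRNAs guide the formation of pseudouridine. In plants many snoRNA genes stand in clusters that are transcribed as 1 precursor, and others lie within introns of protein-coding genes. The snRNAs are the RNA parts of the spliceosome. U1 pairs with the start of an intron and U2 with its branch point, U4 and U6 enter together with U5, and U12, U4atac and U6atac serve the minor spliceosome. Plant snRNA genes are single short units, each with its own promoter, and U6 genes are read by RNA polymerase III while most other snRNA genes are read by RNA polymerase II.

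The positions of many snRNA records carried a limit that touches every snRNA result. Among the 82 snRNA records, 13 carried an older kind of locus tag, and all 13 of these tags stood in numerical order with those of the neighbouring coding genes. The other 69 had tags of a newer series. In 8 cases an older record and a newer record had the same name (U12, U2.2, U2.3, U2.4, U2.6, U2.7, U6.29 and U6atac). The newer record always lay at the higher position, by 3665 bp for the pair on chromosome 1, by 11074 to 11377 bp for the 4 pairs on chromosome 3, and by 17234 to 17538 bp for the 3 pairs on chromosome 5. Newer records lay inside a coding gene in 27 of 69 cases, among them U2.2 within NRPA1, the gene of the largest subunit of RNA polymerase I, and U6atac within the kinase gene MKK3. Only 1 of the 13 older records did, but 5 more older records overlapped a coding gene in part, against 4 newer ones. The older records were also longer, with a median of 208 bp against 124 bp. Which record of each pair marks the transcribed copy was not tested, both were counted, and snRNA results are given for the older records apart from the newer ones. Of the snoRNA records, 57 had older tags and 230 newer ones, none shared a name, and 26 clusters held both kinds within 1000 bp of each other. Of the older snoRNA tags, 53 of 57 stood in order. Newer snoRNA records lay inside a coding gene in 73 of 230 cases, and older ones in 7 of 57. Older snoRNA records were near a summit in 35.1% of cases in air and 43.9% and 47.4% in ethylene libraries 1 and 2. For newer ones it was 40.9%, 50.9% and 50.9%.

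The snoRNA genes stood near a TREE1-GFP summit in a larger share than all gene records did. In air 114 of 287 snoRNA records (39.7%, interval 34.2% to 45.5%) were near a summit. In ethylene library 1 it was 142 (49.5%, 43.7% to 55.2%), and in ethylene library 2 it was 144 (50.2%, 44.4% to 55.9%). Over all nuclear gene records the shares were 31.3%, 33.2% and 33.5% in the same order. The snRNA shares lay close to those, with 29 of 82 (35.4%, 25.9% to 46.2%) in air, 27 (32.9%) and 26 (31.7%) in ethylene libraries 1 and 2. For both classes together the counts were 143 (38.8%), 169 (45.8%) and 170 (46.1%) of 369. With the lists cut to the length of the shortest they were 143, 166 and 146, so ethylene library 2 then lay close to air.

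Other short RNA genes differed from both classes. Of 625 tRNA records 54.4%, 54.7% and 56.2% were near a summit, and of 326 miRNA records 18.4%, 18.1% and 17.5%. Long noncoding RNA records reached 26.5% to 28.8%, and protein-coding records 36.2% to 38.8%. The window spans the record and 1000 bp on either side, so long records have more room for a summit. The median record was 92 bp for snoRNA, 153 bp for snRNA, 73 bp for tRNA, 144.5 bp for miRNA and 2078 bp for coding genes. The share over all snoRNA records thus lay above that of coding genes in each library although the records were shorter. In air the coding share lay within the snoRNA interval. The 71 snoRNA records with no other member within 1000 bp had shares of 33.8%, 42.3% and 36.6%. Those of coding records were 36.2%, 38.5% and 38.8%, so these 71 records lay above them in ethylene library 1 alone.

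**Figure D1:**
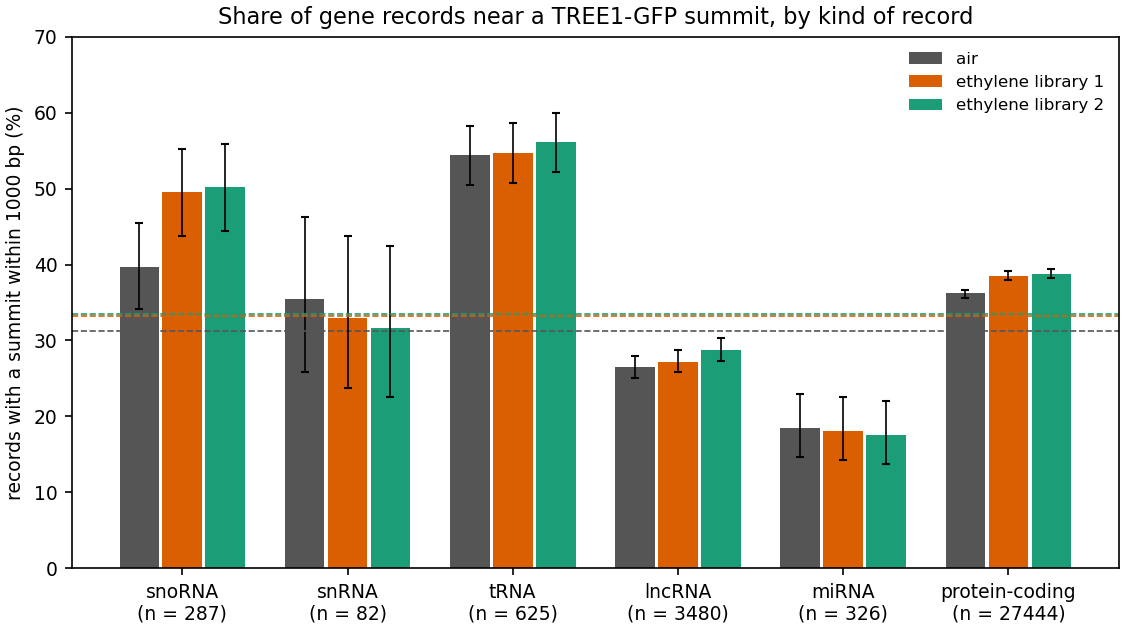
Percent of gene records with a peak summit within 1000 bp (y axis) for 6 kinds of record (x axis, with the number of records), in the air library and both ethylene libraries. Error bars are Wilson 95% intervals for counting error, and dashed lines mark the share over all nuclear gene records in each library. The snoRNA bars stand at 39.7%, 49.5% and 50.2%, above the dashed lines, and the snRNA bars at 31.7% to 35.4%, close to them.

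The distance to the summit separated the classes. Of the records near a summit, the median distance was 510.5, 474 and 506.5 bp for snoRNA in the air library and in ethylene libraries 1 and 2, and 95, 94 and 75 bp for snRNA. Within 250 bp lay 24 of the 29 snRNA records near a summit in air (82.8%), and 20 of 27 (74.1%) and 20 of 26 (76.9%) in ethylene libraries 1 and 2. For snoRNA it was 17 of 114 (14.9%), 27 of 142 (19.0%) and 29 of 144 (20.1%). A summit lay inside the record itself for 1, 2 and 6 snoRNA records and for 7, 6 and 6 snRNA records. The tRNA records, with medians of 38.5, 36 and 25 bp, resembled the snRNA records in this and not the snoRNA records. Protein-coding records near a summit had medians of 83, 86 and 79 bp, with 72.3%, 72.6% and 72.3% within 250 bp. Short distances were thus not particular to snRNA and tRNA records. Both kinds of snRNA tag showed short distances, with 8 of 9, 6 of 8 and 6 of 7 older records within 250 bp and 16 of 20, 14 of 19 and 14 of 19 newer ones.

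The choice of 1000 bp therefore bore on the snoRNA result. Within 500 bp, 19.2%, 26.5% and 24.0% of snoRNA records had a summit against 25.8%, 27.6% and 27.9% of all records, so the order turned and the snoRNA share was the lower in each library. Within 2000 bp it was 51.2%, 61.0% and 64.5% against 38.8%, 41.1% and 41.8%. When peaks scoring under 100 were left out, the snoRNA shares of 13.2% and 14.3% in air and ethylene library 2 lay near the 12.4% and 15.2% of all records, and the 21.3% in ethylene library 1 lay above its 14.6%. Within 100 bp, snRNA records had a summit in 19.5%, 17.1% and 17.1% of cases, all records in 16.4%, 17.1% and 17.5%, and snoRNA records in 2.09%, 2.79% and 3.83%.

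**Figure D2:**
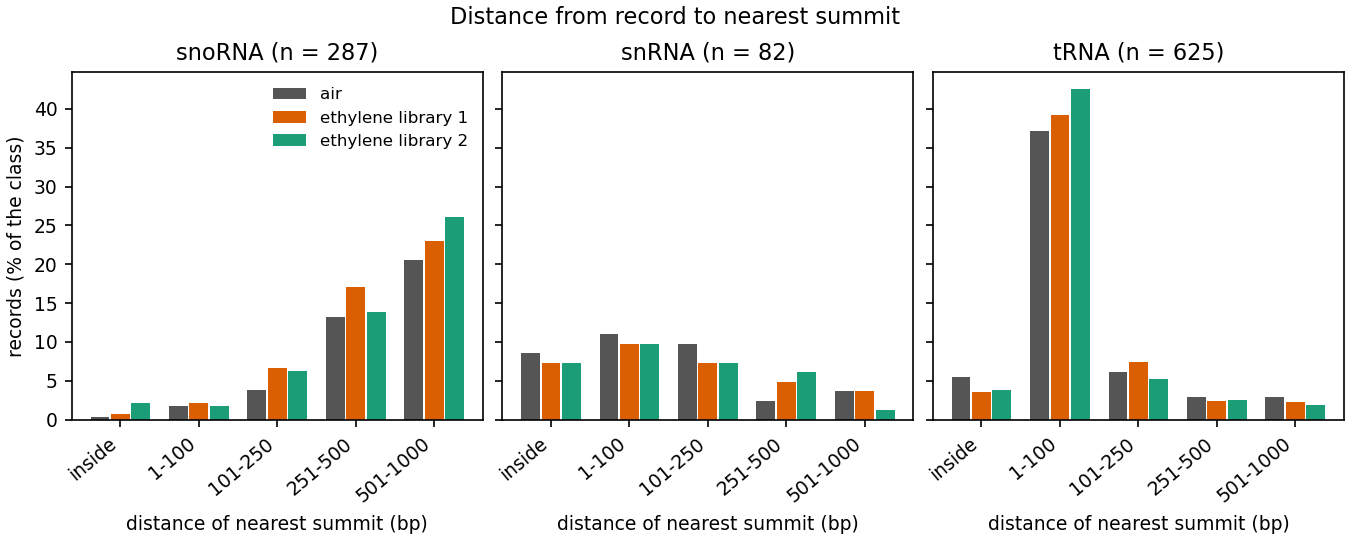
Percent of snoRNA, snRNA and tRNA records (y axis, 1 panel per class) by the distance of the nearest summit in bp (x axis, first bin: summit inside the record), in each of the 3 libraries. The snoRNA bars rise with distance to 20.6%, 23.0% and 26.1% in the last bin, which is also the widest, while the tRNA bars peak at 1 to 100 bp.

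The calls overlapped between libraries. All 3 libraries called 91 members (24.7%) in 55 clusters, beside 20.1% of all gene records. No library called 134 members (36.3%), beside 54.5% of all records. Of the 91 members near a summit in every library, the nearest summits of air and ethylene library 1 lay at most 200 bp apart for 76, those of air and ethylene library 2 for 73, and those of the ethylene libraries for 77. The median shift between libraries was 72, 78 and 53 bp in the same order.

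Both ethylene libraries but not air called 30 members (8.13%), beside 5.22% of all gene records. Of these, 28 were snoRNA and 2 were the snRNA records U6.3 and U6.6. Air and no ethylene library called 17 members (4.61%), beside 4.07%, of which 12 were snoRNA and 5 snRNA. Ethylene library 2 alone called 40 members (10.8%), beside 4.7% of all records, and ethylene library 1 alone 22 (5.96%), beside 4.3%. Of these, 37 and 19 were snoRNA records (12.9% and 6.62% of that class). Counted by cluster it was 17 and 14 of 215, since 1 summit often served several records. A single ethylene library of either kind called 62 members (16.8%), beside 9.0%. Air with 1 ethylene library called 35 members (9.49%), beside 7.12% of all records. At least 1 library called 235 members (63.7%), beside 45.5%. The classes are not symmetric, since the first asks for a summit in both ethylene libraries and the second for a summit in 1 air library. With the lists cut to equal length the counts were 20 members in both ethylene libraries but not air and 20 in air alone, and with each cluster of records counted once they were 17 and 12. The excess of the first over the second was thus not stable. An air summit lay within 2000 bp of 5 of the 30 members, and an ethylene summit within 2000 bp of 6 of the 17.

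Of the snoRNA records, 216 of 287 stood in genomic clusters of 2 or more, and the summits stood beside these clusters, not in them. Records at most 1000 bp apart were chained into 215 clusters, of which 136 held 1 record, 35 held 2 and 44 held 3 or more. The 79 clusters of 2 or more records held 233 of the 369 members. Of these 79 clusters, 35 (44.3%) had a summit within 1000 bp of a record in air, and 45 (57.0%) and 44 (55.7%) did in ethylene libraries 1 and 2. Single records were near a summit in 48 (35.3%), 54 (39.7%) and 48 (35.3%) of 136 cases.

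The summits close to clusters of 2 or more records numbered 38, 54 and 50 in the 3 libraries, and only 2, 1 and 3 of them fell between the first and the last record. Per kb, this gave 0.051, 0.0255 and 0.0766 summits inside the clusters, against 0.228, 0.335 and 0.297 in the 1000 bp on either side. The whole list divided by the effective genome size gave 0.0723, 0.0769 and 0.0837 summits per kb. Density inside the clusters was thus at or below that of the genome, and density beside them was above it. Single records showed the opposite, with 0.334, 0.43 and 0.526 summits per kb inside and 0.151, 0.188 and 0.151 beside. The sets differ in class, since 71 of the 136 single records were snoRNA, against 216 of the 233 records in clusters. In air a summit lay inside 7 snRNA records and 1 snoRNA record, AT2G09680, which stands in a cluster. No single snoRNA record thus held an air summit. In ethylene libraries 1 and 2 a summit lay inside 2 and 6 snoRNA records and inside 6 and 6 snRNA records. The part of class in this contrast was not tested. How well reads map within the clusters was not measured here. Of 23 clusters of 2 or more records called in all 3 libraries, 14 had their summits on the same side or sides in each library, and 20 had at least 1 side in common.

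Because of the clusters, 1 summit often served several records. In air 91 of the 143 members near a summit shared their nearest summit with another member, and the 143 members had 83 distinct nearest summits. In ethylene library 1 it was 105 of 169 members with 103 summits, and in ethylene library 2 it was 117 of 170 with 94. Counted by cluster, 83 (38.6%), 99 (46.0%) and 92 (42.8%) of 215 were near a summit in the 3 libraries, so ethylene library 2 gained most from large clusters.

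**Figure D3:**
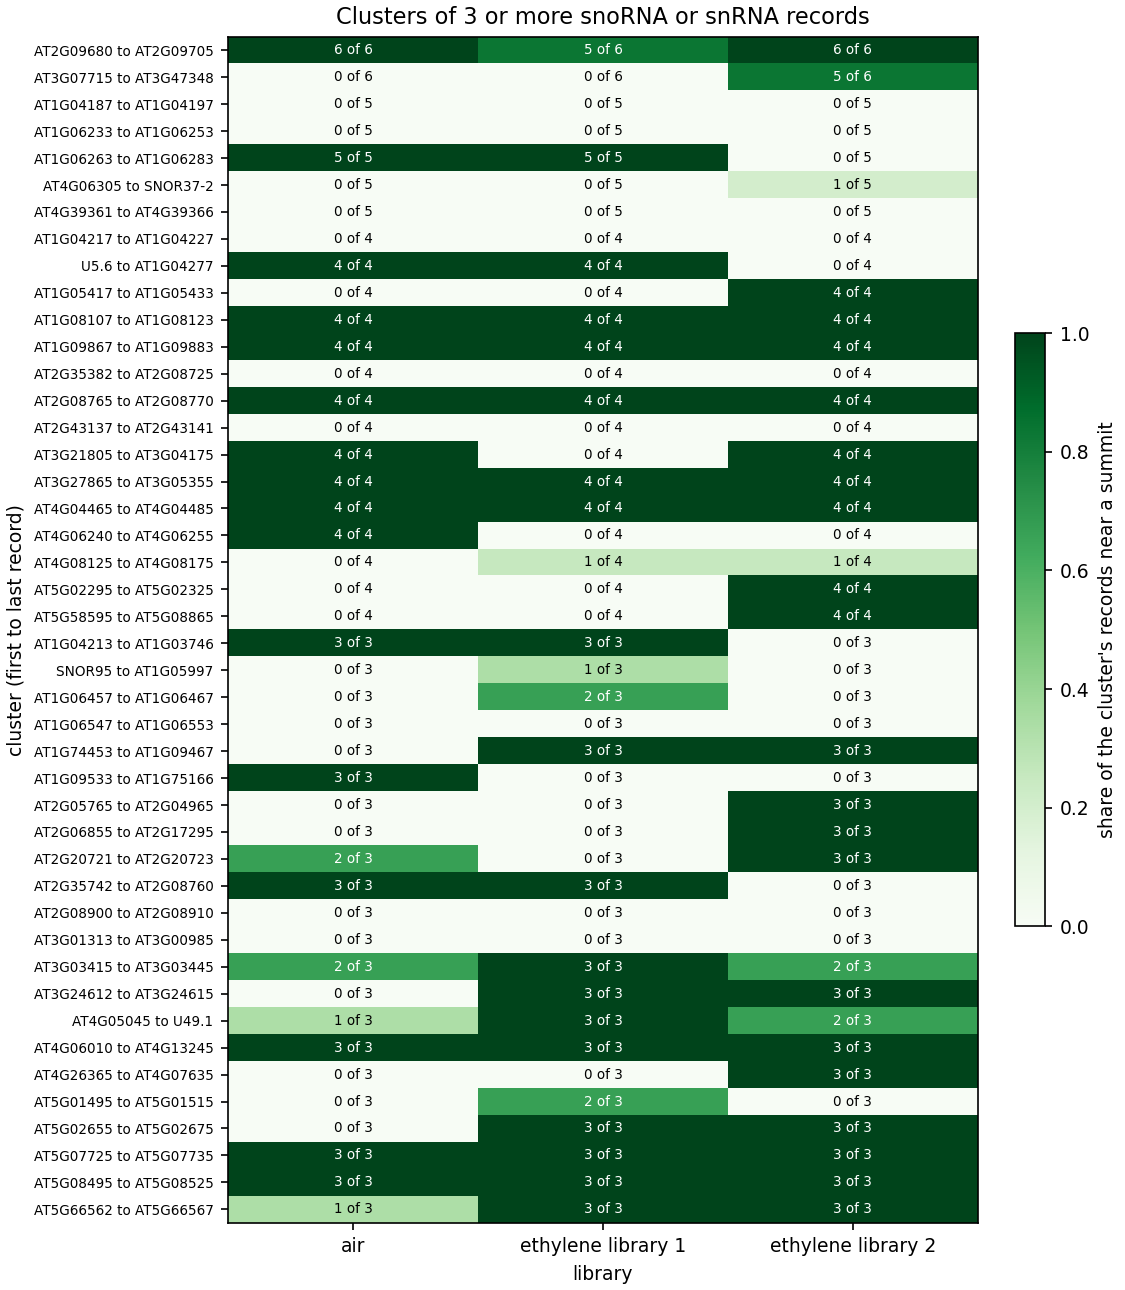
The 44 clusters of 3 or more records (y axis, first to last record) in the 3 libraries (x axis), with the number of records near a summit written in each cell and its share of the cluster given by the colour. Most cells hold either all records or none, since 1 summit near a compact cluster reaches all of it.

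The largest clusters differed in their binding. The cluster from AT2G09680 to AT2G09705 holds 6 snoRNA records between AT2G46190 and AT2G46200. It had 1 peak at its lower end in every library, at chr2:18972943-18973577 in air, with a fold enrichment over local background of 3.29 in air and of 3.1 and 3.15 in ethylene libraries 1 and 2. The summit lay inside AT2G09680 in air and ethylene library 2 and 85 bp from it in ethylene library 1. The last record, AT2G09705, lay 970, 1085 and 991 bp from it, which put that record outside the window in ethylene library 1 alone.

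The other cluster of 6 records, AT3G07715 to AT3G47348 next to the steroid dehydrogenase gene HSD2, had a peak in ethylene library 2 only, at chr3:17444759-17445144 with a fold of 3.66 and 86 tags. Its nearest summits in air and ethylene library 1 were 3048 and 2982 bp from AT3G07715. The 5 snoRNA records AT1G06263 to AT1G06283 inside AT1G29465 all shared 1 peak in air (chr1:10308089-10308708, 4.09-fold) and 1 in ethylene library 1 (3.96-fold), and the nearest summit of ethylene library 2 was 12849 bp from AT1G06263. In both of these clusters the ethylene libraries differed from each other.

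Clusters of 5 records could also lack a summit nearby. The 5 records AT1G04187 to AT1G04197 had none within 1810 bp in any library, and the 5 records AT1G06233 to AT1G06253 at AT1G29418 had none within 4449 bp. The 5 records AT4G39361 to AT4G39366, beside UBP27, had none within 2207 bp. In the cluster from AT4G06305 to SNOR37-2 only AT4G06305 was near a summit, at 885 bp in ethylene library 2. Among the clusters of 4 records, all records were near a summit in every library for AT1G08107 to AT1G08123, AT1G09867 to AT1G09883 in AT1G79520, AT2G08765 to AT2G08770 at AT2G35750, AT3G27865 to AT3G05355 and AT4G04465 to AT4G04485. These 5 were picked for that pattern after their values were seen.

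The place of the records relative to coding genes was set beside the same places for other noncoding genes. Of 80 snoRNA records inside a coding gene, 41.2%, 48.8% and 35.0% were near a summit in the 3 libraries. Of 162 within 1000 bp of a coding gene it was 37.7%, 51.9% and 57.4%. Both ethylene libraries were above air for the records beside coding genes, and ethylene library 1 alone for those inside them. Of other records inside a coding gene, long noncoding RNA records were near a summit in 28.3%, 29.5% and 30.4% of cases, tRNA records in 30.6%, 28.6% and 34.7%, miRNA records in 18.3%, 16.9% and 21.1%, and snRNA records in 21.4%, 21.4% and 25.0%.

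The 41 snoRNA records farther than 1000 bp from any coding gene stood near a summit in 19 (46.3%), 18 (43.9%) and 21 (51.2%) cases. Long noncoding RNA records in the same place did so in 21.5%, 21.0% and 23.4% of 822 cases, tRNA records in 14.1%, 12.5% and 12.5% of 128, and miRNA records in 11.6%, 9.09% and 10.7% of 121. Of the 11 snRNA records so placed, 1 was near a summit in air and 0 in either ethylene library. Away from coding genes the snoRNA share was therefore the highest of these 5 classes of noncoding record in every library, with 41 records behind it. Several of those records shared 1 summit, such as the 4 from AT1G08107 to AT1G08123 and the 4 from AT4G06240 to AT4G06255 in air. The 41 records are thus not independent, and no count by cluster is given for this place. Within 1000 bp of coding genes the tRNA records were higher, at 68.4%, 70.3% and 71.4%.

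The coding genes that hold snoRNA records include several of the translation and snoRNA machinery, and these differed. U60.2F lies inside FIB2, which encodes a fibrillarin, the methyltransferase of box C/D particles, and had a summit at 993, 996 and 942 bp with folds of 2.54, 4.28 and 3.37. Its counterpart U60.1F inside FIB1 had no summit within 1000 bp in any library. AT3G08275 inside UBQ1, a gene of ubiquitin fused to a ribosomal protein, was near a summit in all 3 libraries at 925, 837 and 989 bp, with folds of 2.45, 3.21 and 2.66.

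The distances of U60.2F and AT3G08275 were at the outer edge of the window, and both would be lost at 500 bp. AT1G09083 and AT1G09087 inside the ribosomal protein gene RPL34 were near a summit in both ethylene libraries and not in air, and AT3G02795 inside the translation factor gene EIF4A1 in none. Over all 80 snoRNA records inside a coding gene, the nearest summit within 1000 bp lay inside that gene for 10, 15 and 10 records and outside it for 23, 24 and 18. FIB1, FIB2, UBQ1, RPL34 and EIF4A1 were picked by name from the genes that hold a member.

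Shares also differed with other neighbours, and for longer noncoding records the direction in air was not that of the ethylene libraries. Of 21 snoRNA records with a tRNA record within 1000 bp, 52.4%, 81.0% and 71.4% were near a summit, against 38.7%, 47.0% and 48.5% of the 266 others. Of 66 snoRNA records that overlap a longer noncoding record, it was 36.4%, 59.1% and 63.6%, against 40.7%, 46.6% and 46.2% of 221. The part of these neighbours in the snoRNA shares was not tested. Of the 86, 114 and 102 summits near a member, the gene record nearest to the summit was a coding gene for 45, 59 and 50 and a snoRNA or snRNA for 22 (25.6%), 27 (23.7%) and 26 (25.5%). A summit equally near to a member and another record was counted to the member. About 1 in 4 of these summits thus had a member as its closest gene or tied for closest, and the others could as well be described by another gene.

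Peaks near members were about as strong as the lists they came from. These 86, 114 and 102 summits made up 1.0%, 1.25% and 1.02% of their lists. Their median fold was 3.1 in air and 3.95 and 3.32 in ethylene libraries 1 and 2, against 3.11, 3.99 and 3.39 over all peaks. Their median tag counts were 154, 81 and 106, against 148, 76 and 107. The fold ranged from 2.0 to 4.56 in air, and in the ethylene libraries from 2.6 to 9.85 and from 2.41 to 6.56. Fold, score and tags are the authors' values per peak and rank peaks only within a list.

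**Figure D4:**
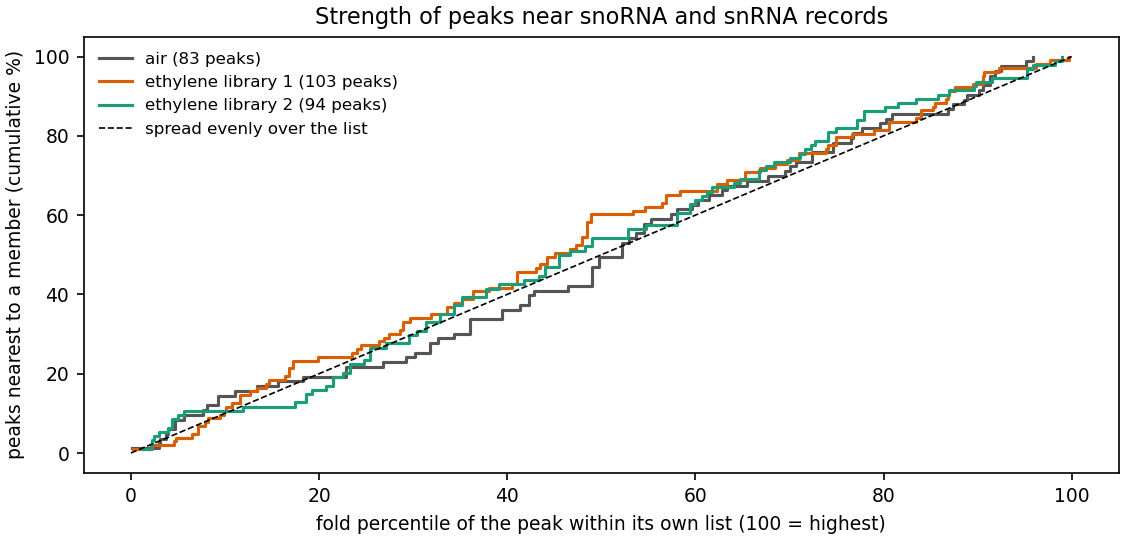
Cumulative percent of the peaks nearest to a member (y axis) against the percentile of their fold within their own list (x axis, 100 = highest), with 83, 103 and 94 distinct peaks in the 3 libraries. The dashed line is an even spread over the list, and the 3 curves run close to it.

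The 10 members with the strongest peaks in every library, by the sum of the fold ranks of their nearest peaks, were 6 snoRNA and 4 snRNA records. The snRNA records U6.29, U2.7, U2.17 and U5.10 were 4 of the first 5. Of these 4, U2.17 and U5.10 shared 1 peak, and only U2.7 is an older record. The first snoRNA record was AT1G09333 inside AT1G72645. Its peak in air, at chr1:27348983-27349695, had a fold of 4.46 and 197 tags. The peak had a fold of 6.95 and 147 tags in ethylene library 1, and 5.02 and 195 tags in ethylene library 2. The summit lay 580, 545 and 494 bp from the record, so the peak stands beside the snoRNA gene in all 3 libraries.

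AT1G06453 inside AT1G31835 had folds of 4.05, 5.35 and 3.66 at 382, 393 and 383 bp. AT5G06565 and AT5G44286 shared a peak next to AT5G44290 with folds of 3.64, 4.52 and 3.82. AT1G05563 inside AT1G20690 had folds of 3.87, 3.95 and 4.25. AT1G08353, which stands 188 bp from AT1G60900, had folds of 3.61, 5.36 and 3.43 at 107, 110 and 130 bp. For these records the position of the summit moved by less than 200 bp between libraries.

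First in this order was the newer snRNA record U6.29 (AT5G06815), which stands 561 bp from the transcription factor gene WRKY8. The summit lay inside it in air and ethylene library 1 and 10 bp away in ethylene library 2. The folds were 4.56, 6.28 and 6.56 with 129, 86 and 145 tags, at chr5:18804423-18804938 in air. The older record of the same name, U6-29 (AT5G46315), lies 17538 bp lower and had its nearest summits at 3571, 2404 and 2413 bp. The binding near the newer record is thus not binding near the older one, and it can be assigned to a U6 gene only if the newer position holds.

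Among the 13 older snRNA records, 9 (69.2%, interval 42.4% to 87.3%) were near a summit in air. In ethylene libraries 1 and 2 it was 8 (61.5%, 35.5% to 82.3%) and 7 (53.8%, 29.1% to 76.8%), and 7 were so in all 3. Of the 69 newer records it was 20 (29.0%), 19 (27.5%) and 19 (27.5%), with 12 in all 3. The 13 records are few, and most older records of U2, like U6-29, are longer than any newer record, up to 912 bp against 195 bp.

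The 7 older records near a summit in every library were U1.5, U4.2, U6-26, U2.4, U2.5, U2.7 and U6atac (given in the table as U6acat). U2.7, an 831 bp record that partly overlaps the gene MIM, had a summit inside it in each library, with folds of 3.4, 5.54 and 5.13 and 384, 219 and 224 tags, at chr5:24712737-24714199 in air. U2.4, a record of 883 bp, and U6atac, one of 208 bp, also had a summit inside the record in every library. The folds were 3.09, 3.39 and 3.32 for U2.4 and 2.77, 3.6 and 3.23 for U6atac. Ethylene library 1 had another summit inside U2.4 with a fold of 4.43, and ethylene library 2 another inside U2.7 with a fold of 4.06. U2.5 had summits at 149, 48 and 0 bp with folds of 3.44, 3.86 and 3.51. These 4 records show a summit in or beside the record in air as well as with ethylene. The newer records named U2.4 and U2.7 span 194 and 195 bp. Where the snRNA lies within the longer older records was not examined.

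U6-26, a U6 gene, had summits at 69, 35 and 50 bp with folds of 2.99, 3.82 and 3.84. U1.5 had them at 193, 295 and 233 bp with folds of 3.13, 3.61 and 3.29. U4.2 had the highest fold of any summit near a member in ethylene library 1, where the peak at chr3:2177222-2177900 had a fold of 9.85 and ranked 28 of 9156 by fold. That summit lay 706 bp from U4.2, as did the air summit with a fold of 3.96. Ethylene library 2 had a summit at 712 bp with a fold of 6.34 and a second, nearer peak at 284 bp with a fold of 3.15.

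U12, which pairs with the branch point of minor introns, had summits in air at 100 bp (2.38-fold) and in ethylene library 1 at 161 bp (3.93-fold), and its nearest summit in ethylene library 2 was at 4620 bp. U2.3 had a summit inside the older record, of 871 bp, in air with a fold of 4.14 and 70 tags. With ethylene it had none within 3413 bp of that record. The newer record of U2.3 had a summit inside it in ethylene library 2 alone, with a fold of 4.09. The other 4 older records, U6-1, U6-29, U2.2 and U2.6, had no summit within 1000 bp in any library, and the nearest one lay 1884 bp from U6-1. The older records without a summit nearby thus included both other U6 genes, U6-1 and U6-29.

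By type over both kinds of tag, U2 had the highest share among the types with more than 3 records, with 12, 12 and 10 of 23 records near a summit and 9 in all 3 libraries. U6 had 5 of 14 in each library, U1 had 4, 3 and 4 of 14, U5 had 2, 3 and 3 of 14 and U4 had 2, 1 and 2 of 11. Of 3 U6atac records 2 were near a summit in every library, and the only U4atac record had a summit inside it in air (2.86-fold) and none within 11691 bp with ethylene. Near-identical copies of U1, U2 and U6 share sequence, and how the authors placed reads that match several copies is not given in the sources used here.

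**Figure D5:**
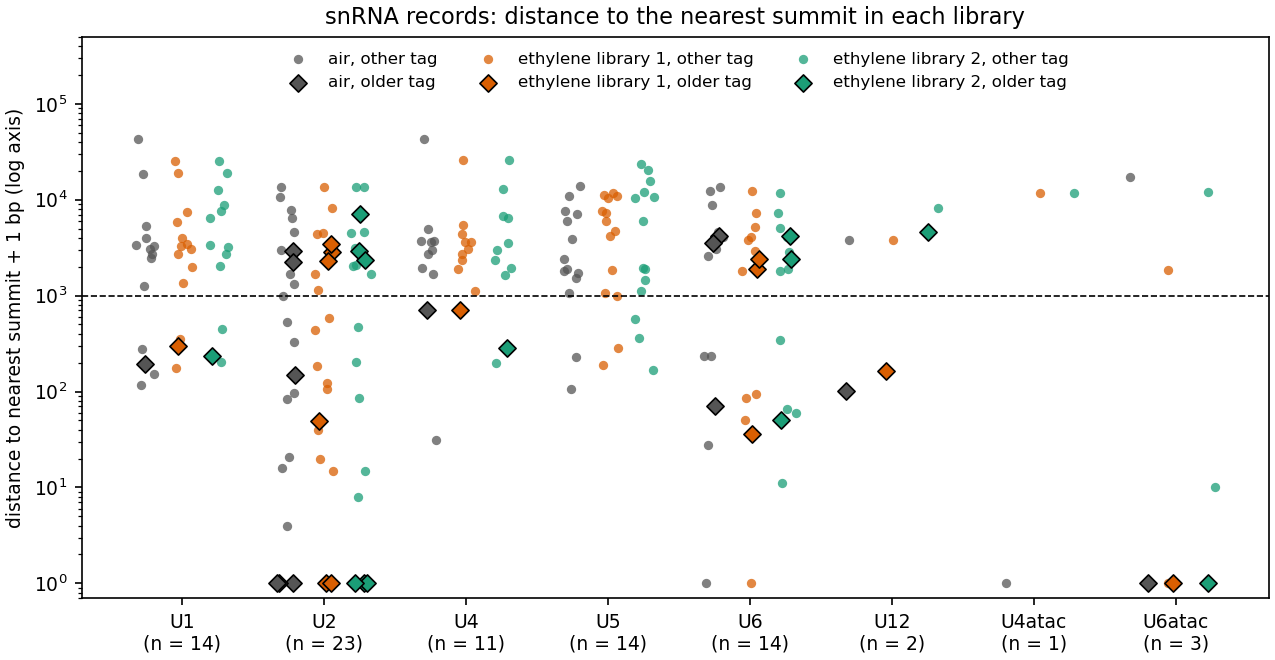
Distance from each snRNA record to its nearest summit plus 1 bp (y axis, log scale) by snRNA type (x axis) and library (colour). Diamonds with a black edge are the 13 records with an older tag and circles the 69 others, and the dashed line marks the window of 1000 bp. Of the types with more than 3 records U2 has the most below the line, and most U4 and U5 records lie above the line.

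The newer snRNA records near a summit in every library included U1.6 at 117, 175 and 202 bp with folds of 3.17, 4.96 and 3.54, and U2.1 at 95, 122 and 14 bp with folds of 3.36, 4.37 and 3.89. U2.17 and U5.10 shared 1 peak next to AT5G14540 with folds of 3.41, 5.1 and 4.4. U6atac2 had a summit inside it in air and ethylene library 1 and at 9 bp in ethylene library 2, with folds of 3.24, 3.12 and 3.62. The 7 neighbouring pairs of a U1 and a U4 record, 188 to 281 bp apart and all of them newer records, mostly had no summit nearby. In 6 of these pairs the nearest summit lay 1987 bp or more away in every library, and only U4.3p with U1.13p, inside the glycanase gene PNG1, was near a summit in air and ethylene library 2. Of the 11 records whose name ends in p, 3, 0 and 2 were near a summit.

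The U3 snoRNAs act in the cleavage of the ribosomal RNA precursor. Among their records, U3D had a summit at 40, 0 and 57 bp with folds of 2.88, 3.37 and 3.46. The U3D record partly overlaps the heat stress factor gene HSFA9. U3B had a summit inside the record in ethylene library 2 alone, with a fold of 4.41. With AT2G09680 and AT4G13245, U3D was 1 of 3 snoRNA records with a summit within 100 bp in every library.

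The strongest members near a summit in both ethylene libraries and not in air were the snoRNA records AT5G02665 and AT5G02675, in a cluster with AT5G02655 close to the transcription factor gene NAC086. Their peak had a fold of 4.9 with 80 tags in ethylene library 1 and 6.07 with 183 tags in ethylene library 2, at chr5:5674767-5675388 in the latter. The nearest air summit was 15336 bp from AT5G02675. The absence in air was thus not a matter of the edge of the window for this cluster.

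U6.3, inside NARA5, had summits at 84 and 58 bp with folds of 5.23 and 3.55 in the ethylene libraries and its nearest air summit at 4598 bp. It is a newer record. AT1G06667 had folds of 4.51 and 3.79, but its summits, at 800 and 0 bp, belong to different peaks. AT5G66562 and AT5G66564 had nearest peaks on opposite sides in the ethylene libraries, with folds of 3.69 and 5.01, and an air summit at 1163 and 1012 bp. Ethylene library 1 also had a peak on the same side as that of ethylene library 2, at 935 bp from AT5G66564 with a fold of 5.67. AT3G02385 inside the translation factor gene EIF3G1 had summits at 999 and 994 bp with ethylene and at 1021 bp in air, so only the edge of the window put it in this class.

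In air alone the strongest members were the older record of U2.3, named above, and U6.2 at 27 bp with a fold of 3.94. U6.2 is a newer record that overlaps AT5G63060 in part, and its nearest ethylene summit lay 5086 bp away. AT4G08235 inside EMB2757 had a fold of 3.53 at 333 bp. The 4 snoRNA records AT4G06240 to AT4G06255 shared 1 air peak at chr4:8459171-8459739 with a fold of 3.39 and 104 tags, 148 to 659 bp away, and their nearest ethylene summits lay 4920 bp or more away. U6.11p, a record of 24 bp, had a fold of 3.32 in air, with ethylene summits at 1795 and 1805 bp.

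Just inside the window in air stood U60.2F at 993 bp and AT1G04277 and U2.16 at 985 bp, and just outside stood AT5G66564 at 1012, AT4G05055 at 1020 and AT3G02385 at 1021 bp. In ethylene library 1 the nearest to the limit were AT3G02385 at 999, U60.2F at 996 and U5.3 at 992 bp inside and AT3G08210 at 1051, U5.11 at 1064 and AT4G09475 at 1067 bp outside. In ethylene library 2 they were AT3G02385 at 994, AT2G09705 at 991 and AT3G08275 at 989 bp inside and AT5G02575 at 1040, AT5G04425 at 1041 and AT2G08580 at 1052 bp outside.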

How the data were processed

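Alignment was by BWA on the TAIR10 build, according to the submitters' processing notes, and peaks were called with MACS 1.4.2 for each library against the input of its treatment, per the file headers, at a p cutoff of 1e-05 with 1 tag kept per position. The run names in the headers carry another protein name, and that of the air list a replicate label 2; protein and groups are named here as in the sample labels. Per the file headers, the deposited number of tags in a peak is a count, the score is 10 times the negative log10 of the p-value, fold enrichment is a ratio to the local background, and the FDR is in percent. Summit height in the deposited summit lists is a signal, the tag pileup.

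All else was computed with pandas 2.3.3 and numpy 2.4.6 in Python 3.11.15, scipy 1.17.1 was used for intervals, and figures were drawn with matplotlib 3.10.9. Gene records and names came from a RefSeq table of TAIR10.1. None of its coordinates is printed, because the lists name TAIR10, and peak coordinates are those of the lists. The table held neither strand nor sequence, so no sequence is shown and the planned count of promoter motifs was not run. The distance was 0 for a summit inside a record, and values given for a member are those of its nearest peak unless another is named. Shares were set beside those of all nuclear gene records, without a test, since records share summits and there was 1 air library. On simulated data 100 of 100 planted records were called in each library. Each planted summit lay within 1000 bp by design, so this checked the code and not the sensitivity of the calls.

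The members, lists and rules were chosen with earlier results of these data known. The text names up to 10 members near binding in all libraries, up to 8 in both ethylene libraries and not air and up to 8 in air alone, by fold rank. It also names 6 of the 7 clusters of 5 or more records, with ties taken in genome order, up to 3 members of each snRNA type and of U3, 3 records on either side of the limit in each library, and neighbouring coding genes. The other cluster of 5, all 13 older snRNA records, the genes picked by name and the clusters of 4 were added after their values were seen. Alternatives were windows of 500 and 2000 bp, a score minimum, equal list lengths, peak overlap in place of the summit, clusters counted once, calls at the same site and leaving out an ethylene library.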

Additional observations from a re-analysis of the deposited data

How the results depend on the processing

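In all, 48 of 66 recomputed counts stayed within 1.5 times the value reported and 18 did not. With a window of 500 bp the members near a summit fell to 81 in air, 100 in ethylene library 1, 94 in ethylene library 2 and 40 in all 3 libraries. With a score of at least 100 they were 50, 76, 53 and 23, and 16 in both ethylene libraries and not air. With each cluster counted once they were 83, 99, 92 and 55, and 17 in both ethylene libraries and not air; the smaller number of units accounts for this drop by construction. Leaving out 1 ethylene library gave 100 to 117 members in all remaining libraries, 52 to 70 with ethylene and not air, and 26 to 43 in air alone. These last classes then ask for 1 ethylene library in place of 2. For the window and the score the cause was not tested. No paired analysis was possible because there was 1 air library and the result comes from no test. Chosen after seeing the data were 3 alternatives: same-named snRNA records counted once (142, 167, 168 and 90), snoRNA records alone (114, 142, 144 and 72), and newer snRNA records left out (123, 150, 151 and 79 in air, ethylene library 1, ethylene library 2 and all 3). The motif count was not run. A record without a summit is one where no peak was called at this depth, and the part of depth in the calls was not tested: ethylene library 1, with 5884897 tags kept the shallowest, had 9156 peaks and air, with 9325092, had 8602.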
